A study of Mus musculus with 24 samples.

Results

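The Wnt pathway was followed through 46 of the 22889 genes in the expression table. They were taken by name alone. Every row named as a Wnt ligand, a frizzled receptor (Fzd), a secreted frizzled-related protein (Sfrp), a Dickkopf protein (Dkk) or an R-spondin (Rspo) was kept, together with Lrp5, Lrp6, Axin2, Lef1 and Tcf7. This gave 19 Wnt genes, 4 R-spondins, 4 Sfrp genes, 4 Dkk genes, 10 frizzled genes, 2 Lrp co-receptors and the 3 genes Axin2, Lef1 and Tcf7.

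Wnt proteins are secreted, lipid-modified ligands that bind a frizzled receptor and the co-receptor Lrp5 or Lrp6. Binding halts the destruction of beta-catenin, which then enters the nucleus, joins Tcf/Lef factors and turns on targets such as Axin2, while other Wnt proteins act without beta-catenin on cell polarity and axon growth. R-spondins raise the number of receptors at the cell surface, Sfrp proteins bind Wnt ligands outside the cell, and Dkk1 and Dkk2 bind Lrp5 and Lrp6. In the embryo Wnt signals help to set the head-to-tail axis of the neural tube, and Wnt1 is made at the border of midbrain and hindbrain and along the dorsal midline.

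RNA was measured in 24 samples of sorted cells from mouse embryonic stem cell cultures, in 4 groups of 6. Oculomotor cultures came from an Islet1-GFP line that also carried NesEPhox2a, in which the nestin enhancer restricts the added Phox2a to neuronal progenitors, and were patterned as embryoid bodies for 5 days with 250 nM SAG, an activator of hedgehog signalling, and 100 ng/ml Fgf8. Spinal cultures came from an Hb9-GFP line without that transgene and received 500 nM SAG and 100 nM retinoic acid for 5 days. Both cultures were then sorted by FACS into a GFP-positive fraction, which holds the reporter-marked motor neurons, and a GFP-negative fraction, which holds the remaining cells. Line, reporter, transgene and morphogens changed together between the cultures, so their parts cannot be told apart, and each culture came from 1 line. The labels do not say whether replicates were separate differentiations, so p-values describe the spread between these samples only. The fractions that share a culture and a number deviated together and are treated as pairs where stated.

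Levels are given in RPKM, a read count scaled to transcript length and to the reads mapped in the sample, which can be set side by side between genes. Depth, estimated from the spacing of low values, was 752529 to 7675428 reads per sample, and 1 read on a transcript of 2 kb was worth 0.0651 to 0.664 RPKM, so the lowest levels rest on a few reads. Samples 5 and 6 of every group were deeper (4822576 to 7675428 reads) than samples 1 to 4 (752529 to 4642207 reads). The summed level of 10 motor neuron markers was 379 to 822 RPKM in the oculomotor GFP-positive and 10.2 to 37.2 RPKM in the oculomotor GFP-negative samples. In the spinal cultures it was 206 to 380 RPKM in 5 GFP-positive and 7.90 to 43.5 RPKM in 5 GFP-negative samples, whereas sample 4 held 61.4 RPKM in the library labelled GFP-positive and 89.9 RPKM in the library labelled GFP-negative. In spinal GFP-negative sample 2, 68.8% of all RPKM lay in 3 gene models (Gm10800, Gm10801 and Gm21738). Counts are therefore also given without these samples where they moved. In bulk samples such as these, fewer cells of a type and less RNA per cell cannot be told apart.

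Of the 46 genes, 27 reached a mean of at least 1 RPKM in at least 1 group, and 11 stayed below 1 RPKM in every sample. Of the 10 frizzled genes 9 reached that mean in at least 1 group, while the ligands were mostly scarce, with 7 of 19. Not every group held all of these receptors. In oculomotor GFP-positive cells Fzd4, Fzd5, Fzd6, Fzd8, Fzd9 and Fzd10 averaged 0.142 to 0.789 RPKM. The 9 Wnt genes below 1 RPKM in every sample were Wnt2, Wnt2b, Wnt3a, Wnt6, Wnt8b, Wnt9b, Wnt10a, Wnt10b and Wnt16. Rspo3 and Rspo4 also stayed below 1 RPKM throughout. The other 8 lacked a group mean of 1 RPKM but passed it in single samples: Wnt8a, Wnt9a, Wnt11, Rspo2, Sfrp4, Dkk4, Fzd10 and Lrp5.

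**Figure D1:**
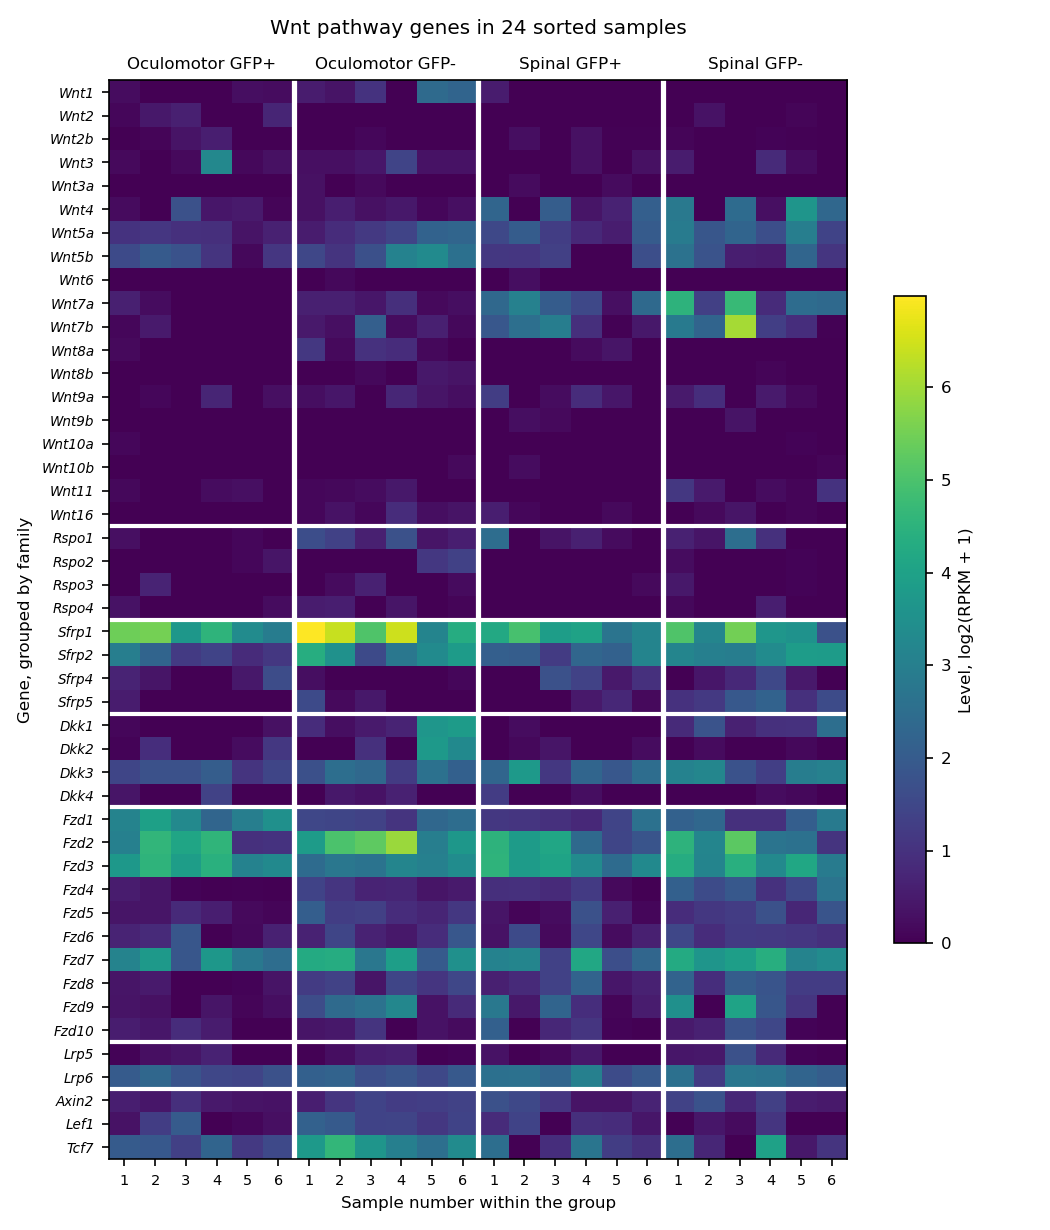
Levels of the 46 Wnt pathway genes (rows, by family) in the 24 samples (columns, numbered 1 to 6 within each group) as log2(RPKM + 1). Sfrp1, Fzd2, Fzd3 and Fzd7 stood out in all groups, most Wnt rows stayed near 0, and Wnt7a and Wnt7b were seen mainly in the spinal groups.

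Differences were tested with limma on log2(RPKM + 1) over all genes, and a gene was called when its Benjamini-Hochberg adjusted p was under 0.05. The added 1 RPKM understates the change of low genes. The comparisons share groups of samples with each other, so their values are given side by side and not as support for one another. Between oculomotor and spinal GFP-positive cells, 0 of 42 Wnt pathway genes tested were called by limma, 7 had an unadjusted p under 0.05, and 0.603% of all 19240 genes tested were called. Between the GFP-negative fractions, 3 of 46 were called (Lef1, Sfrp5 and Wnt7a) against 0.960% of all 22179 genes. Without both spinal samples 4 there were 6 calls, with Fzd4, Tcf7 and Wnt4 added, and the share of all genes called rose as well, to 2.67%. Between the fractions of the oculomotor cultures, 4 of 46 were called, with Fzd1 higher and Sfrp2, Wnt1 and Wnt8a lower in GFP-positive cells, against 6.15% of all genes. With the pairs of fractions as a block, 12 were called, of which Fzd1 and Wnt2 were higher and 10 were lower, and that fit called 16.4% of all genes. Without both spinal samples 4 it was 7, against 8.36% of all genes. Between the fractions of the spinal cultures, 2 of 46 were called (Fzd4 and Sfrp5, both lower in GFP-positive cells) against 1.23% of all genes. The interaction, which is how far the fraction difference itself differed between the cultures, was called for 0 of 46 by limma, with 10 at an unadjusted p under 0.05 and 0.320% of all genes called. With the pairs as a block, Fzd1 was called in the interaction, against 2.04% of all genes.

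Complete separation of the groups was also counted. In the GFP-positive comparison it held for 0 of 42 Wnt pathway genes, against 1.43% of all genes tested. In the GFP-negative comparison it held for Lef1 alone, 1 of 46 against 1.27%. In the oculomotor cultures Rspo1, Tcf7 and Wnt16 lay lower in every GFP-positive sample, 3 of 46 against 6.52% of all genes, which is the same share. In the spinal cultures Dkk1 and Sfrp5 lay lower in every GFP-positive sample, 2 of 46 against 0.469%. The median difference over the Wnt pathway genes was -0.31 on the log2 scale between the oculomotor fractions, where the median of all genes was 0, and 9 of the 46 had a higher mean in GFP-positive cells.

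**Figure D2:**
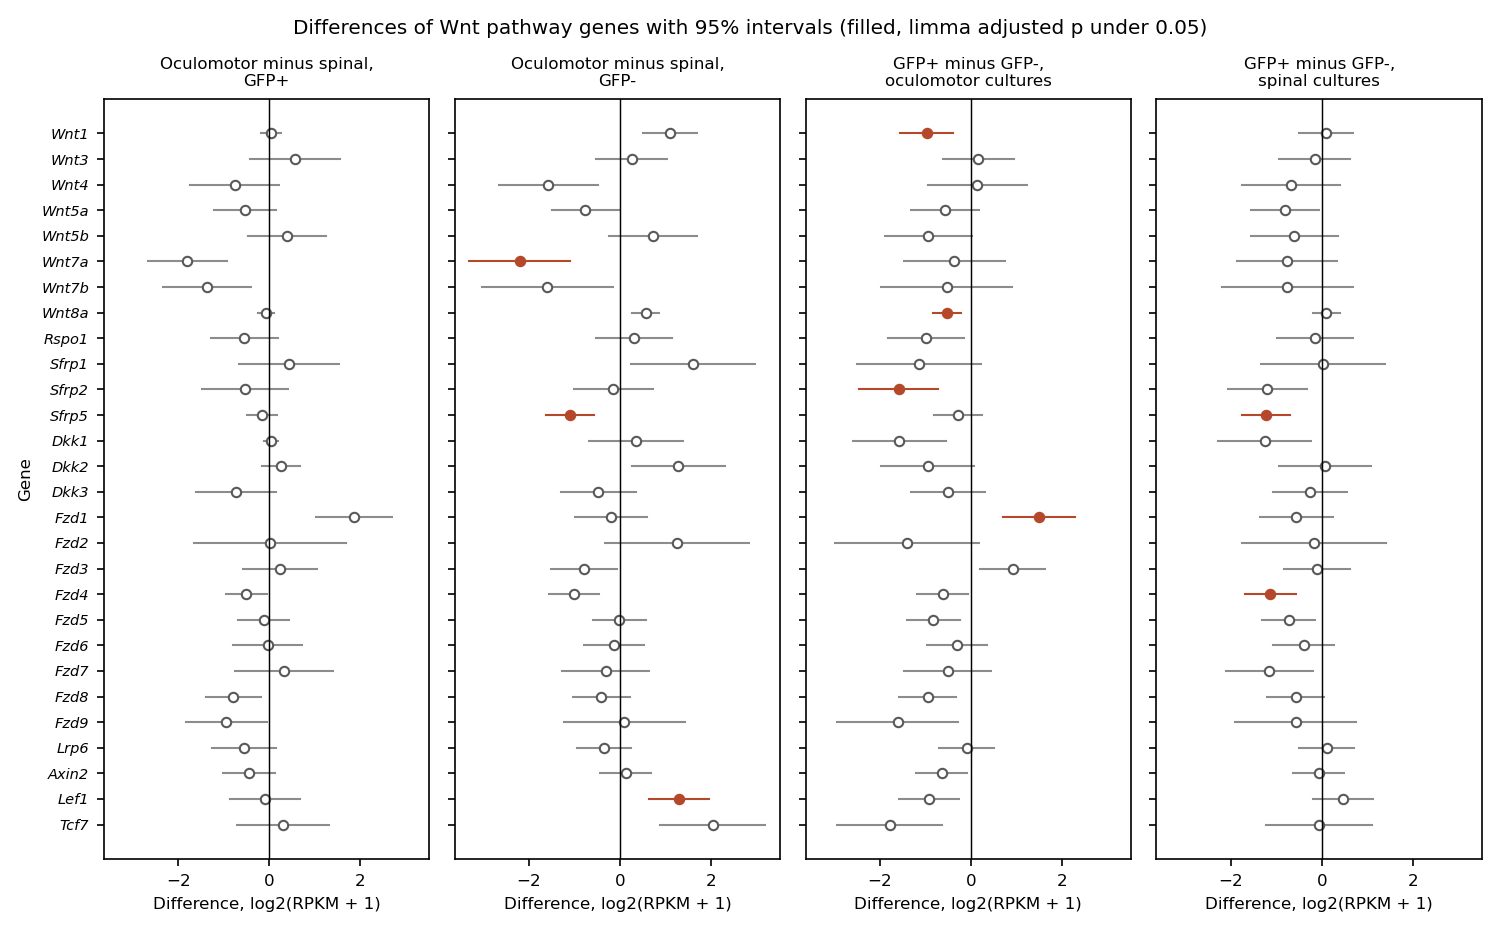
Differences in log2(RPKM + 1), with 95% intervals, for the Wnt pathway genes with a group mean of at least 1 RPKM and for Wnt8a, in 4 comparisons. Filled points mark limma adjusted p under 0.05: Lef1, Sfrp5 and Wnt7a between GFP-negative fractions, Fzd1, Sfrp2, Wnt1 and Wnt8a in oculomotor cultures, and Fzd4 and Sfrp5 in spinal cultures.

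Among the ligands, Wnt7a (chr6:91363981-91411363, minus strand, GRCm38), which is made by the developing spinal cord and brain and is known for its part in synapse assembly, was low in both oculomotor fractions and higher in the spinal ones. In GFP-negative cells its level was 0.131 to 0.935 RPKM (median 0.424) in oculomotor and 0.816 to 25.1 RPKM (median 4.37) in spinal samples. Of the spinal samples 5 lay above every oculomotor sample, and sample 4, at 0.816 RPKM, lay among them. The level fell by 2.20 on the log2 scale from spinal to oculomotor GFP-negative cells (SE 0.54, limma adjusted p = 0.0475). That call was kept in 5 of 24 fits that each left out 1 sample, with adjusted p up to 0.109 without spinal GFP-negative sample 1, and reached 0.00651 without both spinal samples 4. Here and below, some of the 24 fits left the groups compared whole. The sample left out then entered only through the shared spread and the genes tested. In GFP-positive cells Wnt7a was listed at 0 in 4 oculomotor samples and held 0.543 and 0.171 RPKM in samples 1 and 2, and it was 0.218 to 7.32 RPKM (median 3.63) in spinal samples. The difference of -1.80 (SE 0.40) was not called (limma adjusted p = 0.0694), and spinal sample 5, the lowest, was the only spinal sample within the oculomotor range. Without that sample the limma adjusted p was 0.00891, the 1 call among 12 fits that each left out 1 sample. The adjusted p was largest, 0.167, without oculomotor sample 6. Spinal sample 5 held 12389 RPKM of 5 pluripotency markers, the highest sum of all samples, against 14.4 to 5120 RPKM in the other spinal GFP-positive samples, and the part of those cells in its low Wnt7a level was not tested.

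Wnt7b, the closest relative of Wnt7a, had the highest group mean of all ligands, but 1 sample carried it. Spinal GFP-negative samples held 0.0319 to 65.0 RPKM (median 2.59), with 65.0 RPKM in sample 3 and 6.40 RPKM as the next highest. Its level was 0.110 to 3.32 RPKM in oculomotor GFP-negative, 0 to 0.431 RPKM in oculomotor GFP-positive and 0.0313 to 6.81 RPKM in spinal GFP-positive samples, so the cultures overlapped in both fractions. The differences were -1.60 (SE 0.70, limma adjusted p = 0.378) in GFP-negative and -1.37 (SE 0.45, adjusted p = 0.265) in GFP-positive cells.

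Wnt1 (chr15:98789857-98793837, plus strand), the signal of the midbrain-hindbrain border, was found chiefly in oculomotor GFP-negative cells. The 6 samples held 0.435, 0.296, 1.03, 0, 4.36 and 3.73 RPKM. Oculomotor GFP-positive samples stayed between 0 and 0.197 RPKM, spinal GFP-negative samples were all listed at 0, and 1 spinal GFP-positive sample held 0.450 RPKM. Samples 5 and 6 thus carried most of the level. Between the oculomotor fractions Wnt1 fell by 0.97 on the log2 scale in GFP-positive cells (SE 0.28, limma adjusted p = 0.0416), with 5 pairs lower and 1 pair tied at 0. The mean difference was -0.42 in samples 1 to 4 and -2.08 in samples 5 and 6, and the call was kept in 14 of 24 fits that left out 1 sample, with an adjusted p of 0.109 without oculomotor GFP-negative sample 6. It was lost without any 1 of the oculomotor GFP-positive samples, oculomotor GFP-negative sample 3, 5 or 6, or spinal GFP-negative sample 1. Against spinal GFP-negative cells the difference was 1.10 (SE 0.28, limma adjusted p = 0.0642).

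Wnt8a and Wnt16 stayed at the edge of detection. Wnt8a was 0 to 1.18 RPKM (median 0.492) in oculomotor GFP-negative samples, and in the GFP-positive samples it was listed at 0 in 5 and at 0.123 RPKM in sample 1. It fell by 0.53 in GFP-positive cells (SE 0.15, limma adjusted p = 0.0294), a call kept in 16 of 24 fits that left out 1 sample, with an adjusted p of 0.0795 at most, without oculomotor GFP-negative sample 1. Every lost call came from leaving out an oculomotor sample: GFP-positive 2, 3, 4, 5 or 6, or GFP-negative 1, 3 or 4. Wnt16 was listed at 0 in all oculomotor GFP-positive samples and was 0.0790 to 0.850 RPKM in the GFP-negative ones (limma adjusted p = 0.0692). These values rest on few reads.

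The remaining ligands with a mean of 1 RPKM were not called in any comparison. Wnt5a, which acts mainly without beta-catenin, averaged 0.817 ± 0.323 RPKM in oculomotor GFP-positive, 1.95 ± 1.44 in oculomotor GFP-negative, 1.77 ± 1.11 in spinal GFP-positive and 3.93 ± 2.24 in spinal GFP-negative samples (SD, n = 6 each). Wnt5b averaged 1.60 ± 1.02, 4.45 ± 3.32, 1.01 ± 0.871 and 2.25 ± 1.93 RPKM in the same order. Wnt4 averaged 0.550 ± 0.886, 0.280 ± 0.136, 1.86 ± 1.74 and 4.39 ± 4.24 RPKM, and in GFP-negative cells its difference was -1.58 (SE 0.53, limma adjusted p = 0.192). The mean of Wnt3 in oculomotor GFP-positive cells, 1.52 RPKM, rested on sample 4 at 8.50 RPKM, with the other samples at 0 to 0.235 RPKM.

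R-spondins, which strengthen the signal at the receptor, were low. Rspo1 was 0 to 0.222 RPKM in oculomotor GFP-positive and 0.321 to 2.29 RPKM (median 1.06) in oculomotor GFP-negative samples. The fractions did not overlap, but the difference of -0.99 (SE 0.40) was not called (limma adjusted p = 0.173). In the spinal cultures both fractions ran from 0 to over 4 RPKM, with 4.60 RPKM in GFP-positive sample 1 and 4.80 RPKM in GFP-negative sample 3. Rspo2 was listed at 0 in oculomotor GFP-negative samples 1 to 4 and reached 1.19 and 1.55 RPKM in samples 5 and 6.

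Sfrp1, an extracellular Wnt binder, had the highest level of all 46 genes. It was 6.66 to 44.8 RPKM (median 17.2) in oculomotor GFP-positive, 7.83 to 126 RPKM (median 57.8) in oculomotor GFP-negative, 5.44 to 29.8 RPKM (median 14.5) in spinal GFP-positive and 2.35 to 43.8 RPKM (median 11.3) in spinal GFP-negative samples. All 4 groups overlapped, and the largest difference, 1.61 between the GFP-negative fractions (SE 0.66), was not called (limma adjusted p = 0.333).

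Sfrp2 (chr3:83766321-83774316, plus strand), of the same family, was lower in the GFP-positive cells of both cultures. In oculomotor cultures it was 0.800 to 7.0 RPKM (median 1.46) in GFP-positive and 1.95 to 19.4 RPKM (median 9.81) in GFP-negative samples. In spinal cultures it was 1.34 to 7.93 RPKM (median 3.42) and 6.79 to 13.5 RPKM (median 8.71). The ranges overlapped in both cultures, yet every GFP-positive sample lay below the GFP-negative sample of its own number, 6 of 6 pairs in each. The oculomotor difference was -1.59 (SE 0.42, limma adjusted p = 0.0231), and it was kept in 18 of 24 fits that left out 1 sample, with an adjusted p of 0.0681 at most, without oculomotor GFP-negative sample 1. It was also lost without GFP-negative sample 2 or 6 or GFP-positive sample 3, 5 or 6. The spinal difference was -1.20 (SE 0.42, limma adjusted p = 0.226, and 0.0344 with the pairs as a block).

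Sfrp5 (chr19:42197971-42202252, minus strand), another Wnt binder, was higher in spinal GFP-negative cells, at a low level. All 6 held 0.970 to 3.59 RPKM (median 1.62), above all spinal GFP-positive samples at 0 to 0.728 RPKM (median 0.0686). Oculomotor GFP-negative samples were 0 to 0.367 RPKM except sample 1 at 1.99 RPKM, and oculomotor GFP-positive samples were 0 in 5 and 0.454 RPKM in sample 1. The difference was -1.23 between the spinal fractions (SE 0.25, limma adjusted p = 0.0118) and was called in each of 24 fits that left out 1 sample. The call was lost with the 2 spinal groups alone (limma adjusted p = 0.200) and with sample weights (0.106). It was also lost in samples 1 to 4 (0.172) and in samples 5 and 6 (0.227). Between the GFP-negative fractions the difference was -1.11 from spinal to oculomotor (SE 0.25, limma adjusted p = 0.0333). That difference was called in 17 of 24 fits that left out 1 sample, with an adjusted p of 0.0882 at most, without oculomotor GFP-negative sample 6. Its adjusted p was 0.0548 without spinal GFP-negative samples 2 and 4. Summed levels of 5 endoderm markers were 36.6 to 270 RPKM in 5 spinal GFP-negative samples and 4.08 RPKM in sample 4, against at most 9.17 RPKM in spinal GFP-positive and 16.1 RPKM in oculomotor GFP-negative samples. Sfrp5 was highest in sample 4, where the endoderm sum was lowest. The part of these cells in the result was not tested. Sfrp4 had group means of 0.0480 to 0.877 RPKM and was not called.

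The Dickkopf genes differed by sample as much as by group. Dkk1, which blocks Lrp5 and Lrp6, was 0 to 0.239 RPKM in oculomotor GFP-positive and 0 to 0.177 RPKM in spinal GFP-positive samples. In GFP-negative samples it was 0.548 to 4.76 RPKM (median 0.981) in spinal and 0.193 to 13.1 RPKM (median 0.731) in oculomotor cultures. Every GFP-positive sample lay below the GFP-negative sample of its number in both cultures, 6 of 6 pairs each, and the spinal fractions did not overlap at all. The oculomotor difference of -1.57 (SE 0.50) had a limma adjusted p of 0.0621, and of 0.0298 with the pairs as a block. The spinal difference was -1.25 (SE 0.50, limma adjusted p = 0.326). Dkk2 averaged 0.380 RPKM or less in 3 groups and 3.73 ± 5.54 RPKM in oculomotor GFP-negative samples. Dkk3, a divergent member, was the most even of the family, at 1.07 to 3.16 RPKM (median 2.05) in oculomotor GFP-positive, 1.32 to 5.06 RPKM (median 3.78) in oculomotor GFP-negative, 1.20 to 12.4 RPKM (median 3.86) in spinal GFP-positive and 1.47 to 8.26 RPKM (median 7.09) in spinal GFP-negative samples. Its groups overlapped throughout. Dkk4 had group means of 0.0478 to 0.323 RPKM.

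Among the receptors, Fzd1 (chr5:4753839-4758035, minus strand) was the 1 gene that stood out in oculomotor neurons. Its level was 7.70, 14.7, 8.76, 3.87, 6.98 and 10.3 RPKM in the 6 oculomotor GFP-positive samples. It was 1.06 to 4.68 RPKM (median 1.77) in oculomotor GFP-negative, 0.732 to 5.12 RPKM (median 1.16) in spinal GFP-positive and 0.950 to 6.28 RPKM (median 3.35) in spinal GFP-negative samples. Of the oculomotor GFP-positive samples 5 lay above every sample of these 3 groups, and sample 4 lay within their ranges. Between the oculomotor fractions the difference was 1.50 (SE 0.39, limma adjusted p = 0.0193), in the same direction in 6 of 6 pairs, and it was called in 23 of 24 fits that left out 1 sample, with an adjusted p of 0.0534 without oculomotor GFP-positive sample 2. The mean difference was 1.83 in samples 1 to 4 and 0.83 in samples 5 and 6. Fits of each set alone gave limma adjusted p of 0.0317 and 0.417 for this difference. Between the oculomotor and spinal GFP-positive cells it was 1.85 (SE 0.39, 95% interval 1.02 to 2.69), just short of the threshold at a limma adjusted p of 0.0514. That comparison depended on single samples: the adjusted p was 0.0202 without spinal sample 6, the highest of its group, and 0.146 without oculomotor sample 2. In spinal cultures the difference between the fractions was -0.56 (SE 0.39, limma adjusted p = 0.685). The interaction was 2.05 (SE 0.54, limma adjusted p = 0.129, and 0.0117 with the pairs as a block).

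Fzd4 (chr7:89404355-89413134, plus strand), which also serves as the receptor of the non-Wnt ligand norrin, showed another pattern, with its highest level in spinal GFP-negative cells. It was 0.980 to 5.39 RPKM (median 2.39) there, 0 to 1.26 RPKM (median 0.838) in spinal GFP-positive, 0.309 to 1.64 RPKM (median 0.643) in oculomotor GFP-negative and 0 to 0.449 RPKM (median 0.0407) in oculomotor GFP-positive samples. In the spinal cultures the ranges overlapped through GFP-negative sample 4, at 0.980 RPKM. Fzd4 fell by 1.13 in spinal GFP-positive cells (SE 0.27, limma adjusted p = 0.0330), was called in 18 of 24 fits that left out 1 sample, and reached 0.00332 without both spinal samples 4. The largest adjusted p, 0.0984, came without spinal GFP-positive sample 6, and the call was also lost without GFP-positive sample 3 or 5 or GFP-negative sample 1, 3 or 6. Between the GFP-negative fractions the difference was -1.01 (SE 0.27, limma adjusted p = 0.0747). Among spinal GFP-negative samples the endoderm sum given for Sfrp5 was lowest in sample 4, which had the lowest Fzd4. It was highest, at 270 RPKM, in sample 6, which had the highest Fzd4. Among oculomotor GFP-negative samples the highest endoderm sum, 16.1 RPKM in sample 6, came with Fzd4 at 0.408 RPKM. The part of these cells in the Fzd4 result was not tested.

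Fzd2, Fzd3 and Fzd7 were the receptors with the highest means, in an order that changed with the group, except in oculomotor GFP-positive cells. There Fzd2 and Fzd3 led, and Fzd1, at a mean of 8.72 RPKM, lay above Fzd7, at 7.57 RPKM. Fzd3, known for its part in axon guidance, was 7.59 to 22.2 RPKM (median 13.1) in oculomotor GFP-positive, 4.40 to 9.57 RPKM (median 6.57) in oculomotor GFP-negative, 4.48 to 22.2 RPKM (median 11.4) in spinal GFP-positive and 6.43 to 20.1 RPKM (median 12.9) in spinal GFP-negative samples. Its difference between the oculomotor fractions was 0.92 (SE 0.35, limma adjusted p = 0.132), with 4 of 6 GFP-positive samples above every GFP-negative sample. Fzd2 was 0.940 to 23.2 RPKM (median 11.6), 6.91 to 60.7 RPKM (median 22.3), 1.77 to 21.9 RPKM (median 8.82) and 1.08 to 36.3 RPKM (median 6.73) in the same order of groups. These wide ranges overlapped, but Fzd2 was lower in the GFP-positive sample of all 6 oculomotor pairs, and its difference of -1.41 had a limma adjusted p of 0.359, and of 0.00776 with the pairs as a block.

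Fzd5, Fzd8 and Fzd9 went the same way in oculomotor cultures, each lower in the GFP-positive sample of all 6 pairs. Fzd5 averaged 0.355 ± 0.265 RPKM in GFP-positive and 1.48 ± 0.921 RPKM in GFP-negative samples, a difference of -0.83 (limma adjusted p = 0.0895, and 0.0331 with the pairs as a block). Fzd8 averaged 0.180 ± 0.184 and 1.32 ± 0.558 RPKM, a difference of -0.95 (limma adjusted p = 0.0636, and 0.0164 with the block). Fzd9 averaged 0.181 ± 0.123 and 3.50 ± 3.08 RPKM, a difference of -1.61 (limma adjusted p = 0.163, and 0.0122 with the block). In spinal GFP-positive and GFP-negative samples the means were 0.584 and 1.48 RPKM for Fzd5, 1.23 and 2.16 RPKM for Fzd8, and 1.91 and 4.97 RPKM for Fzd9, and none of these was called. Fzd7 averaged 7.57, 11.8, 6.76 and 13.5 RPKM and Fzd6 averaged 0.789, 1.14, 0.812 and 1.22 RPKM in oculomotor GFP-positive, oculomotor GFP-negative, spinal GFP-positive and spinal GFP-negative samples, with no call. Fzd10 had group means of 0.346 to 0.879 RPKM.

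Of the co-receptors, Lrp6 was present in every sample, at 1.68 to 4.01 RPKM (median 2.42) in oculomotor GFP-positive, 1.87 to 3.69 RPKM (median 2.73) in oculomotor GFP-negative, 2.02 to 7.25 RPKM (median 4.45) in spinal GFP-positive and 1.30 to 5.64 RPKM (median 4.37) in spinal GFP-negative samples. The spinal medians were higher than the oculomotor ones, but all groups overlapped, and no comparison called it. Lrp5 stayed at 0 to 0.773 RPKM in all but 1 sample, spinal GFP-negative sample 3 at 2.32 RPKM.

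**Figure D3:**
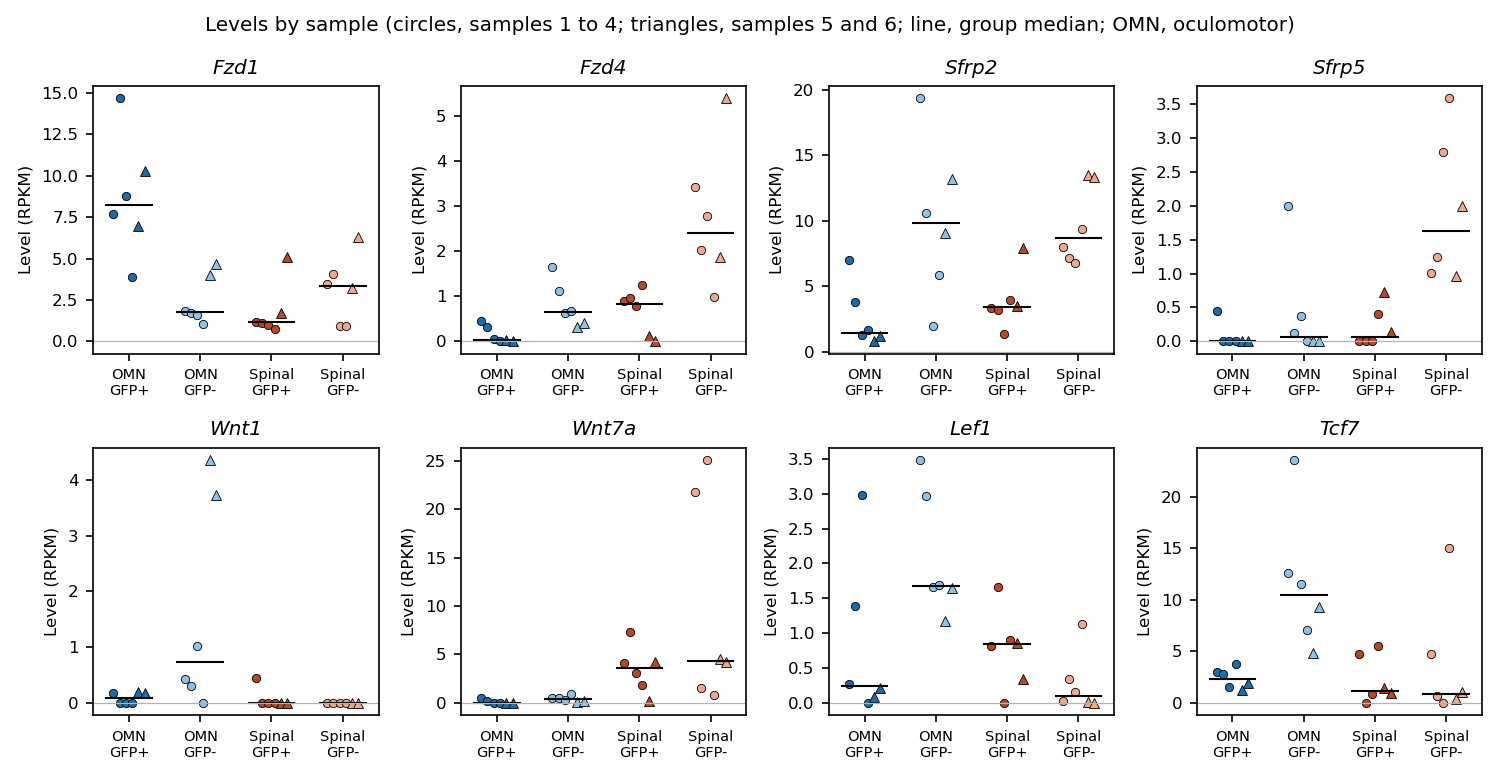
RPKM by sample for the genes called in a comparison, apart from Wnt8a, and for Tcf7. Lines are group medians, circles are samples 1 to 4 and triangles samples 5 and 6. Fzd1 was highest in oculomotor (OMN) GFP-positive, Lef1 and Tcf7 in oculomotor GFP-negative, and Fzd4, Sfrp5 and Wnt7a in spinal samples, with spinal GFP-negative sample 4 at 15.0 RPKM for Tcf7.

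Downstream of the receptors, Lef1 (chr3:131110471-131224356, plus strand) and Tcf7 (chr11:52252371-52283014, minus strand), the DNA-binding partners of beta-catenin and themselves targets of the pathway, were highest in oculomotor GFP-negative cells, while Axin2, the negative feedback gene used as its readout, was low in every group. Tcf7 was 4.82 to 23.6 RPKM (median 10.4) in oculomotor GFP-negative and 1.25 to 3.77 RPKM (median 2.36) in oculomotor GFP-positive samples, with no overlap. The difference of -1.79 (SE 0.56) had a limma adjusted p of 0.0607, and of 0.00184 with the pairs as a block. In spinal samples Tcf7 was 0 to 5.56 RPKM (median 1.18) in GFP-positive and 0 to 15.0 RPKM (median 0.874) in GFP-negative cells. Sample 4 alone held 15.0 RPKM, and the other spinal GFP-negative samples stayed at or under 4.70 RPKM, below every oculomotor GFP-negative sample. The difference between the GFP-negative fractions was 2.03 (SE 0.56, limma adjusted p = 0.0905), and its adjusted p was 0.00255 without both spinal samples 4.

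Lef1 was 1.18 to 3.49 RPKM (median 1.68) in oculomotor GFP-negative and 0 to 1.12 RPKM (median 0.0912) in spinal GFP-negative samples, which did not overlap. The difference was 1.29 (SE 0.32, limma adjusted p = 0.0498). It sat at the threshold and was kept in 4 of 24 fits that left out 1 sample, with adjusted p from 0.0152 without spinal GFP-negative sample 4 to 0.116 without oculomotor GFP-negative sample 1. The mean difference was 1.31 in samples 1 to 4 and 1.25 in samples 5 and 6. In oculomotor GFP-positive cells Lef1 was 0 to 2.98 RPKM (median 0.242), and in spinal GFP-positive cells 0 to 1.66 RPKM (median 0.839). Between the oculomotor fractions the difference was -0.92 (limma adjusted p = 0.0924, and 0.0376 with the pairs as a block).

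Axin2 (chr11:108920349-108950783, plus strand) was 0.263 to 0.923 RPKM (median 0.365) in oculomotor GFP-positive, 0.501 to 1.65 RPKM (median 1.41) in oculomotor GFP-negative, 0.279 to 2.33 RPKM (median 0.885) in spinal GFP-positive and 0.384 to 2.36 RPKM (median 1.11) in spinal GFP-negative samples. The oculomotor fractions overlapped only through GFP-negative sample 1, the lowest of its group. The difference between them was -0.64 (SE 0.27, 95% interval -1.20 to -0.08, limma adjusted p = 0.195). Between the GFP-positive cells of the cultures it was -0.44 (95% interval -1.02 to 0.13, limma adjusted p = 0.615), and between the GFP-negative cells 0.12 (95% interval -0.44 to 0.69, adjusted p = 0.904).

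Cell makeup differed between the oculomotor fractions alongside these genes. The summed level of 5 pluripotency markers was 670 to 9860 RPKM in oculomotor GFP-negative and 0.315 to 253 RPKM in GFP-positive samples, none of the 5 markers being at 0 throughout a group. The sum of 5 neuron markers was 13.5 to 55.9 RPKM in GFP-negative and 609 to 1142 RPKM in GFP-positive samples. Spinal GFP-negative samples held 74.4 to 393 RPKM of pluripotency markers except sample 4, at 5756 RPKM, which also had the highest Tcf7 of its group. In oculomotor GFP-negative cells the highest sum, 9860 RPKM in sample 5, came with the lowest Tcf7, 4.82 RPKM. Sample 2, with the highest Tcf7 at 23.6 RPKM, held 2994 RPKM, and sample 4, with the lowest sum, had Tcf7 at 7.06 RPKM. Spinal GFP-positive sample 5 held 12389 RPKM, with Tcf7 at 1.42 RPKM. The part of the cell makeup in these results was not tested.

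Promoter windows are shown for 3 of the genes above: Dkk1 and Lef1, each with a match to the Tcf/Lef motif, and Fzd1, called in oculomotor cultures, without one. Windows of 250 bases before to 50 bases after a transcript start came from RefSeq on build GRCm38.p6 and were found for 30 of the 46 genes, in 37 windows. The motif was searched on both strands as CTTTG followed by A or T at each of the next 2 bases, 7 bases in all, and matches are in capitals. Dkk1, on the minus strand at chr19:30549447-30549746, had matches starting 117 and 98 bases before the start. For Lef1, on the plus strand at chr3:131156044-131156343, the window belongs to a start inside the gene, with a match 147 bases before it, while its 3 other windows had none. Fzd1 is on the minus strand at chr5:4758167-4758466.
Dkk1: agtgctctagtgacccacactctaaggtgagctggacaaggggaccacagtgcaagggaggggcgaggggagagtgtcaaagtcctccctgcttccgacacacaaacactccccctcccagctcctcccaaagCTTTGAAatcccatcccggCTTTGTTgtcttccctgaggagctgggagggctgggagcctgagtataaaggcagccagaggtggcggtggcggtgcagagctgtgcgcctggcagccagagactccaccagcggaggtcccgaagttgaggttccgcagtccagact
Lef1: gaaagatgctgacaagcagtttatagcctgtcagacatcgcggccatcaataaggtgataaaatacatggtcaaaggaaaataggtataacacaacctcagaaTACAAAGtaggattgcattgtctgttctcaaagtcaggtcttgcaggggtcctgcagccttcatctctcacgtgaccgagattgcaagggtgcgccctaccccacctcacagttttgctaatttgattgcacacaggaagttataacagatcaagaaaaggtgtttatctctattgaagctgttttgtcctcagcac
Fzd1: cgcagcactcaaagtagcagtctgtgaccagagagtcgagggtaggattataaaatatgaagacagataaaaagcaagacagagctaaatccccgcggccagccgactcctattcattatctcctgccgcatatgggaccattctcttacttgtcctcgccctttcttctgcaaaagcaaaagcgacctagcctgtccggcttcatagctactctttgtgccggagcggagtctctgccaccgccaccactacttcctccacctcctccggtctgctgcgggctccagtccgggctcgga
At least 1 match was held by 6 of the 37 windows (16.2%), those of Dkk1, Fzd7, Lef1, Wnt3, Wnt5b and Wnt11, and by 16.9% of all 32851 windows in the table, so the share was near that of promoters in general. A match in these letters is a description of the window only.

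The 2 deeper samples of the oculomotor GFP-negative group stood apart in several Wnt pathway genes, as in many genes of the whole set. This pattern was noticed after the values were seen. Samples 5 and 6 both lay above samples 1 to 4 for 7 genes (Dkk1, Dkk2, Fzd1, Rspo2, Wnt1, Wnt5a and Wnt8b) and below them for 10 (Fzd2, Fzd4, Fzd9, Lef1, Rspo1, Sfrp1, Wnt4, Wnt7a, Wnt8a and Wnt11), 17 of 46, where 31.2% of all genes were apart in this way. Dkk1 was 11.8 and 13.1 RPKM in samples 5 and 6 and at most 0.852 RPKM in samples 1 to 4. Dkk2 was 12.5 and 8.96 RPKM against at most 0.942 RPKM. Wnt5a was 3.61 and 3.85 RPKM against 1.71 RPKM or less. Conversely, Sfrp1 was 7.83 and 19.1 RPKM against at least 32.6 RPKM, and Fzd2 was 6.91 and 12.0 RPKM against at least 13.3 RPKM. In oculomotor GFP-positive samples 11 genes were apart (2 higher and 9 lower, against 26.0% of all genes), in spinal GFP-positive 7 (1 and 6, against 20.4%) and in spinal GFP-negative 9 (1 and 8, against 17.6%). In all 4 groups the Wnt pathway genes were apart about as often as genes in general, so the pattern was not particular to them. Fzd2 was lower in samples 5 and 6 in all 4 groups. The labels give no batch for these samples.

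Markers moved with the deeper oculomotor GFP-negative samples as well. The sum of the 3 roof plate markers found in the table (Lmx1a, Msx1 and Rspo1, the last also counted among the R-spondins here) was 40.3 and 25.3 RPKM in samples 5 and 6 and 1.79 to 5.33 RPKM in samples 1 to 4, and nearly all of it was Lmx1a at 39.3 and 24.4 RPKM. Rspo1 itself went the other way, at 0.321 and 0.499 RPKM in samples 5 and 6 against 0.540 to 2.29 RPKM in samples 1 to 4. The sum of 7 midbrain-hindbrain markers was 63.2 and 64.7 RPKM against 17.4 to 26.6 RPKM. In spinal GFP-negative samples those sums were at most 5.23 and 7.30 RPKM. The sum of 5 floor plate markers was higher in samples 5 and 6 as well, at 110 and 135 RPKM against 24.7 to 87.3 RPKM. It reached 283 RPKM in spinal GFP-negative samples. The part of these markers in the higher Wnt1, Dkk1, Dkk2, Rspo2 and Wnt5a levels was not tested.

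**Figure D4:**
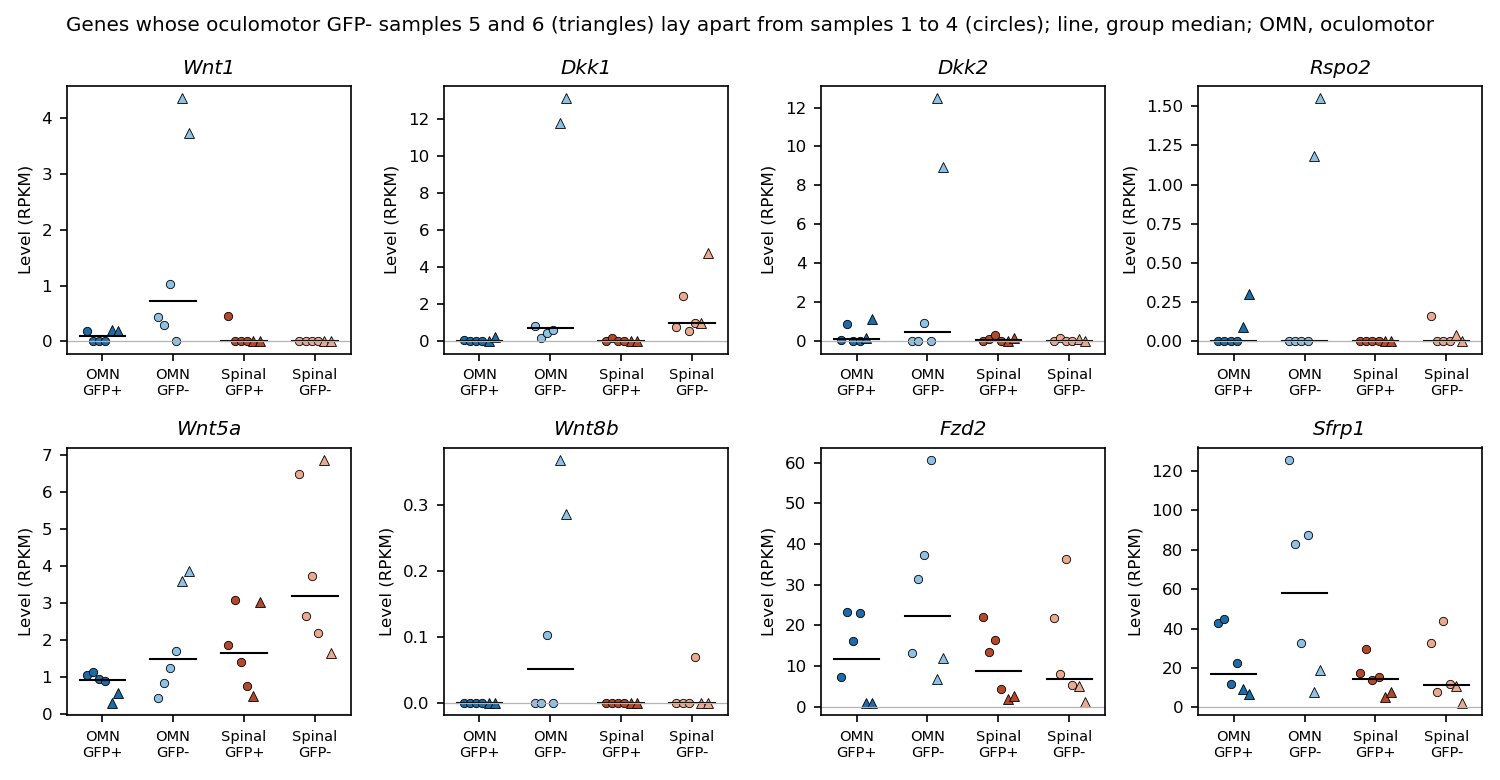
RPKM by sample for 8 Wnt pathway genes whose samples 5 and 6 (triangles) lay apart from samples 1 to 4 (circles) in the oculomotor (OMN) GFP-negative group. Lines are group medians. Dkk1, Dkk2, Wnt1, Rspo2, Wnt5a and Wnt8b were higher and Fzd2 and Sfrp1 lower in the triangles of that group.

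A list of 56 further pathway genes (secretion factors, R-spondin receptors, polarity proteins, the destruction complex, nuclear factors and targets) was read in the same fits. Between the cultures limma called 0 of 53 in GFP-positive and 0 of 56 in GFP-negative cells, against 0.603% and 0.960% of all genes. Between the oculomotor fractions 8 of 56 were called, against 6.15% of all genes. Celsr3 and Prickle1, of the planar polarity branch, were higher in GFP-positive cells by 2.62 (limma adjusted p = 0.00263) and 2.32 (adjusted p = 0.00354). Prickle1 was 14.4 to 34.0 RPKM in GFP-positive and 1.35 to 11.1 RPKM in GFP-negative samples, without overlap. Dact1, a binder of Dishevelled, rose by 2.30 (limma adjusted p = 0.0170), Myc, a proliferation factor and target, by 2.26 (0.00417), Apc2, a neuronal relative of Apc in the destruction complex, by 1.75 (0.0300), and Tle1, a co-repressor of Tcf factors, by 1.28 (0.00969). Tnfrsf19, a target of the pathway, fell by 2.00 (limma adjusted p = 0.00183) and Ror1, a receptor of Wnt5a, by 0.84 (0.0247). Between the spinal fractions 2 of 56 were called, against 1.23%, both lower in GFP-positive cells: Frzb, an Sfrp relative, by 2.40 (limma adjusted p = 0.00397) and Tcf7l2, a Tcf factor, by 2.06 (0.0120). Frzb was 4.99 to 10.3 RPKM in 5 spinal GFP-negative samples and listed at 0 in sample 4, and at most 0.333 RPKM in either GFP-positive group. The interaction was called for 0 of 56 by limma.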

How the data were processed

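RNA-seq libraries of the 24 samples were sequenced on HiSeq2000 and HiSeq2500 instruments, and the labels do not say which sample ran on which. The submitters' processing notes name HISAT2 2.0.3, DESeq2 1.12.4 and mm10 (GRCm38). The authors deposited 1 table of RPKM made with rpkmforgenes, without counts, and the gene annotation is not given in the sources used here. Because the table holds no counts, limma 3.58.1 (R 4.3.3) with a mean-variance trend was fitted to log2(RPKM + 1) of genes above 0 in at least 2 of the samples fitted: the 12 GFP-positive samples for the comparison of GFP-positive cells, and all 24 samples, in 4 groups, for the others. P-values were adjusted by Benjamini-Hochberg over all genes tested. The procedure was tested on simulated data with large changes in genes of higher level and no pairing of fractions. That test does not show how it handles smaller changes in low genes, such as most of those here.

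Depth was estimated from low values of genes with 1 transcript, of which 94.5 to 97.0% came out as whole reads within 2%. Gene positions came from GENCODE M21 on GRCm38. Fractions with the same number in a culture deviated together (correlations of their deviations from the group means 0.379 to 0.728 in oculomotor and 0.421 to 0.661 in spinal cultures, 6 of 6 pairs above 0.1 in each), so fits with these 12 pairs as a replicate block are given where a call changed. The labels give the numbers. The Wnt pathway genes, the further lists and the tests were chosen with earlier results of these data known. Values in every sample were given for genes called or completely separated in a comparison, for Axin2, Lef1 and Tcf7, and for the leading genes of each family, the larger sets by their lowest, median and highest value. Figures were drawn with matplotlib 3.10.9 (Python 3.11.15). The alternatives were another offset, other filters, scaling, sample weights, blocks, sets of samples and single samples left out.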

Additional observations from a re-analysis of the deposited data

Results flagged for a closer look

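Groups of 6 samples with a mean of at least 1 RPKM were examined, on the scale of log2(RPKM + 1). In 3 of these 72 groups 1 sample lay far from the others, with a gap to its nearest neighbour above 0.625 of the range of its group. With normally distributed values chance alone gives this in about 1 of 20 groups. Fzd1 was 5.12 RPKM in spinal GFP-positive sample 6, the highest of its group, with the others at 0.732 to 1.71 RPKM. Fzd8 was 0.313 RPKM in oculomotor GFP-negative sample 3, the lowest of its group, with the others at 1.12 to 1.78 RPKM. Wnt3 was 8.50 RPKM in oculomotor GFP-positive sample 4, the highest of its group, with the others at 0 to 0.235 RPKM.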

How the results depend on the processing

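The counts of Wnt pathway genes called by limma moved with many settings, and the share of all genes called often moved with them. Followed singly were the 9 called differences and 6 uncalled ones of Fzd1, Wnt7a, Tcf7 and Wnt1, with adjusted p of 0.0514 to 0.129. None of these 15 reversed its direction, but most of the fits shared nearly all their samples, which left little room for a reversal. Other differences reversed between the sets of samples: between GFP-negative fractions Dkk1 differed by -0.47 in samples 1 to 4 and 1.99 in samples 5 and 6, and Axin2 by -0.23 and 0.84. In GFP-positive cells the count of 0 became 2 with an offset of 0.1 RPKM, with a mean of at least 1 RPKM or with sample weights, and 1 with median-of-ratios scaling or all 24 samples in the fit. The share of all genes, 0.603% at first, was 1.19%, 1.63%, 1.35%, 0.728% and 1.54% in that order. Between GFP-negative fractions the count of 3 became 1 with a mean of at least 1 RPKM, 5 with sample weights, 0 with the 2 groups alone, 0 in samples 1 to 4, 5 in samples 5 and 6, 5 without spinal GFP-negative samples 2 and 4, 6 without both spinal samples 4 and 5 without spinal samples 2 and 4 of both fractions, while the share of all genes, 0.960% at first, was 0.186% to 3.13%. In oculomotor cultures the count of 4 became 9 with an offset of 0.1 RPKM, 16 with sample weights, 9 with the 2 groups alone, 2 in samples 1 to 4, 8 in samples 5 and 6, 7 without both spinal samples 4 and 7 without spinal samples 2 and 4 of both fractions, while the share of all genes was 6.15% at first and, in that order, 7.05%, 17.1%, 12.6%, 2.27%, 4.74%, 8.36% and 10.3%. In spinal cultures the count of 2 became 1 with a mean of at least 1 RPKM or with sample weights, and 0 with the 2 groups alone, in samples 1 to 4 or in samples 5 and 6. There the share of all genes, 1.23% at first, was 2.32%, 2.18%, 0.0192%, 0.00478% and 1.61% in that order. The interaction count of 0 became 1 with sample weights and 1 in samples 5 and 6. For the interaction the share of all genes was 0.320% at first, and 1.08% and 0.450% in these settings. The cause of these moves was not tested.

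With the pairs of fractions as a replicate block the count was 12 in oculomotor cultures, 3 in spinal cultures and 1 for the interaction. The shares of all genes were 16.4%, 2.93% and 2.04%. The replicate number was also used as a block across both cultures, where 4 of 6 numbers correlated above 0.1 in each fraction. The counts were then 0 and 7 between the cultures in GFP-positive and GFP-negative cells, 8 and 3 between the oculomotor and spinal fractions and 1 for the interaction. In that order the shares of all genes were 0.379%, 2.54%, 10.6%, 1.88% and 0.600%. Leaving out 1 sample gave 0 to 1 in GFP-positive cells, 0 to 5 in GFP-negative cells, 1 to 7 in oculomotor cultures, 1 to 3 in spinal cultures and 0 to 1 for the interaction. In these fits the shares of all genes were 0.350 to 0.950%, 0.520 to 2.02%, 4.59 to 7.07%, 0.842 to 2.88% and 0.185 to 1.06%. The 9 called differences kept their call in 139 of 216 such fits and in 79 of 109 fits under the other settings. The 216 include fits that left out a sample outside the groups compared. The 6 uncalled ones gained a call in 10 of 120 and in 28 of 70. A level below about 0.7 RPKM can be a single read on a transcript of 2 kb in the shallowest sample. In samples 5 and 6 such a read was worth 0.0651 to 0.104 RPKM. A listed 0 thus means that no read was found at the depth of that sample, and does not show that the gene was silent.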
